A study of Mus musculus with 6 samples.

Results

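The 10 genes described here encode factors of the endoplasmic reticulum that are made under protein-folding stress, and they were taken by name from 52542 gene rows of single-cell count tables of mouse pancreatic islets. Sdf2l1, Creld2 and Manf encode lumenal proteins, of which Creld2 and Manf are released from cells under stress. Derl3, Herpud1, Dnajb9, Sel1l, Syvn1 and Edem1 act in the degradation of misfolded proteins, and Xbp1 encodes a transcription factor that controls many of these genes. All 10 genes had a row in the files. They were chosen by earlier values of the same tables, in which several of them stood higher in beta cells after partial pancreatectomy, so that this comparison is given below as a description with no test.

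Cells that secrete much protein, such as the beta cell with its load of proinsulin, depend on the unfolded protein response, in which the sensors Ire1, Perk and Atf6 react to misfolded protein in the endoplasmic reticulum. Ire1 splices the Xbp1 transcript, and the protein made from it, with Atf6, turns on genes for chaperones, folding enzymes and the degradation machinery. In that machinery Edem1 marks misfolded glycoproteins, Sel1l, Herpud1 and the ubiquitin ligase Syvn1 form a membrane complex that takes them out, and derlins such as Derl3 take part in their passage to the cytosol.

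The wells came from islets of male mice with Sox9-CreER and a tdTomato reporter, alleles that every mouse carried, so that red cells are those with a history of Sox9 activity, which is typical of ducts and progenitors. All mice were given tamoxifen (8 mg) during 2 weeks starting at the age of 10 weeks, had surgery at 12 weeks and gave their islets 4 weeks later. The surgery was a partial pancreatectomy (ppx) or a sham operation. Each group had 3 plates of 384 wells, profiled by MARS-seq, a plate method that reads molecules tagged with unique identifiers (UMIs) close to their 3′ ends and so needs no correction for gene length. The first plate of both groups held sorted tomato-positive cells, the second sham plate held 4 rows of positive cells beside negative ones, and the other 3 plates held tomato-negative cells. The labels do not map plates to pancreata, so the p-values below rest on plates and not on mice. Between ppx and sham they weigh a difference against the spread between plates. Between kinds of wells, with plate as a block, they weigh it against the spread of that difference over the plates. This spread is estimated with information shared over all genes tested.

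The plates held 1262152 to 1508513 UMIs in ppx and 1250861 to 1458576 UMIs in sham, and 2115 of 2304 wells were kept. Wells were classed by the share of a hormone in their UMIs. Insulin-only wells numbered 19, 294 and 292 on ppx plates 1 to 3 and 22, 177 and 196 on sham plates 1 to 3. Somatostatin-only wells (538), glucagon-only wells (154) and wells with both insulin and somatostatin (180) were the other classes used for tests. Somatostatin-only wells numbered 224, 9 and 11 on ppx plates 1 to 3 and 212, 63 and 19 on sham plates 1 to 3. Glucagon-only wells numbered 6, 17 and 8 on ppx and 16, 49 and 58 on sham plates. Wells with both insulin and somatostatin numbered 78, 6 and 6 on ppx and 58, 26 and 6 on sham plates. All 8 beta cell markers checked, among them Ucn3, Mafa and Slc2a2, were higher in sham insulin-only than in sham somatostatin-only wells, and 5 of 6 tested delta cell markers were lower. The sixth was higher. Doublets were not removed, so a well with both hormones may hold more than 1 cell, and no well name occurred on more than 1 plate.

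The promoters of 9 of the 10 genes were found in the RefSeq table of build GRCm38.p6, which covers 250 bases before to 50 bases after each gene start. They were searched on both strands for 3 motifs known from stress-responsive promoters. The endoplasmic reticulum stress element (ERSE) was searched as CCAAT, any 9 bases and CCACG, its second form (ERSE-II) as ATTGG, any 1 base and CCACG, and the unfolded protein response element (UPRE) as TGACGTGG. ERSE was in 39 of 32851 promoters (0.119%) and in those of Creld2, Derl3 and Syvn1, ERSE-II in 12 (0.0365%) and in that of Herpud1, and UPRE in 222 (0.676%) and in none of the 9. A match is a description of the letters in these windows and says nothing about binding. The 4 promoters with a match are shown. No motif was found in the windows of Sdf2l1, Dnajb9, Sel1l, Edem1 and Xbp1. For Xbp1 the bases checked after the start were not found in its GENCODE transcripts, so its window is less certain. A link between motifs and levels was not tested. Capitals mark the motif, which reads on the reverse strand in Creld2 (126 to 108 bases before the start) and Derl3 (156 to 138 bases before the start), and on the forward strand in Syvn1 (44 to 26 bases before the start) and Herpud1 (52 to 42 bases before the start). All 4 lie on the plus strand, at chr15:88819396-88819695 for Creld2, chr10:75893148-75893447 for Derl3, chr19:6046326-6046625 for Syvn1 and chr8:94386179-94386478 for Herpud1.
Creld2: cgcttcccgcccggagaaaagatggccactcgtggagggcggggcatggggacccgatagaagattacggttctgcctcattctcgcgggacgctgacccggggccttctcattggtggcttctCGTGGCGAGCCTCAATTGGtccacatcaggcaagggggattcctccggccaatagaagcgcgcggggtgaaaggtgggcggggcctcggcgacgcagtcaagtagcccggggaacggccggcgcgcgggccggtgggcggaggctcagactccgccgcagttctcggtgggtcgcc
Derl3: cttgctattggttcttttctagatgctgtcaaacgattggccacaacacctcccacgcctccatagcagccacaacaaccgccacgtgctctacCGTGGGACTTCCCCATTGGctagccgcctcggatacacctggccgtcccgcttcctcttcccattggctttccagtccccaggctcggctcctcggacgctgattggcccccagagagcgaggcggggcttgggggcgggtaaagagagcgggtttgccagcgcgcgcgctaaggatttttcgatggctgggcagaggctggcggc
Syvn1: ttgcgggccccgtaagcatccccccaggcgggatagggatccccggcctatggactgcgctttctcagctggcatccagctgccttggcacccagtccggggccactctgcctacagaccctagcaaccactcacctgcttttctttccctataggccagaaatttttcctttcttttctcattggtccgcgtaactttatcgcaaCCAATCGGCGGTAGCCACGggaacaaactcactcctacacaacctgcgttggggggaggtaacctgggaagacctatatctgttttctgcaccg
Herpud1: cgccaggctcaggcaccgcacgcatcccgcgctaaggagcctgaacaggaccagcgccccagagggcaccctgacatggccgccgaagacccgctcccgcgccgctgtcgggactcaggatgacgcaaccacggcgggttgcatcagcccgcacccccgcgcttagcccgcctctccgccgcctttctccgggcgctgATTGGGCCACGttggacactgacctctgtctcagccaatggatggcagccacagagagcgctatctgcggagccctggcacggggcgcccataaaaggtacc

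The first question was which islet cells express these genes without the loss of pancreas. On sham plates, 8 of the 10 genes had their highest mean level in insulin-only wells among the 4 classes. The other 2, Dnajb9 and Xbp1, had it in wells with both insulin and somatostatin. Of the 8 genes, only Manf and Syvn1 did not overlap the class with the next highest mean. No share over all genes is given beside this count. A level is the sum of a gene's UMIs in all wells of 1 class on 1 plate, scaled to 1000000 UMIs of that sum (CPM). Against somatostatin-only wells, 6 of 9 tested genes were higher in insulin-only wells and none was lower, beside 10.1% of all 3810 genes tested that were called higher and 8.43% called lower (18.5% in either direction). Against glucagon-only wells, 6 of 8 tested genes were higher and none was lower, beside 17.4% of 2692 genes called higher and 19.8% called lower (37.2% in either direction). The median log2 difference of the genes was 1.09 and 1.00 in these comparisons, against 0.03 and -0.00 over all genes tested.

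Among the stress-secreted factors, Manf, which protects cells under endoplasmic reticulum stress, was the most abundant. It had 810, 786 and 770 CPM in insulin-only wells of sham plates 1 to 3, 327, 449 and 467 CPM in somatostatin-only wells and 299, 369 and 393 CPM in glucagon-only wells. The levels in insulin-only wells lay above all others, including the 589 to 755 CPM of wells with both insulin and somatostatin. Manf was higher in insulin-only than in somatostatin-only wells by 1.20 ± 0.16 on the log2 scale (SE, n = 3 plates, edgeR adjusted p = 5.5e-07) and higher than in glucagon-only wells by 0.98 ± 0.13 (edgeR adjusted p = 4.8e-12).

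Creld2, a secreted factor with thioredoxin-like folding activity, had 146, 123 and 127 CPM in insulin-only wells, 71.9, 52.8 and 110 CPM in somatostatin-only wells and 31.5, 52.7 and 46.5 CPM in glucagon-only wells of sham plates 1 to 3. Insulin-only wells were above both other classes on every plate, and the wells with both insulin and somatostatin (85.5 to 128 CPM) overlapped them. The difference was 1.13 ± 0.35 against somatostatin-only wells (edgeR adjusted p = 0.021) and 1.33 ± 0.32 against glucagon-only wells (edgeR adjusted p = 0.00021).

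Sdf2l1, a partner of the chaperone Hspa5 that keeps misfolded proteins soluble, had 105, 97.0 and 48.9 CPM in insulin-only wells, 18.6, 26.4 and 27.5 CPM in somatostatin-only wells and 15.7, 21.1 and 10.3 CPM in glucagon-only wells of sham plates 1 to 3. The insulin-only levels did not overlap those of the other two classes. The difference from somatostatin-only wells was 2.31 ± 0.51 (edgeR adjusted p = 0.0012), and with 7 UMIs in all sham glucagon-only wells the gene was not tested there.

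Of the degradation genes, Dnajb9, a cochaperone that helps deliver unfolded proteins, had 559, 625 and 550 CPM in insulin-only wells, 378, 414 and 275 CPM in somatostatin-only wells and 236, 227 and 315 CPM in glucagon-only wells of sham plates 1 to 3. Insulin-only wells and wells with both insulin and somatostatin (485 to 651 CPM) overlapped each other and lay above the remaining classes. The difference was 0.81 ± 0.15 against somatostatin-only wells (edgeR adjusted p = 0.00015) and 1.02 ± 0.14 against glucagon-only wells (edgeR adjusted p = 2.3e-11).

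Sel1l, the adaptor that holds Syvn1 in its complex, had 138, 176 and 132 CPM in insulin-only wells, 79.9, 88.0 and 82.5 CPM in somatostatin-only wells and 63.0, 68.5 and 36.2 CPM in glucagon-only wells of sham plates 1 to 3. The levels in insulin-only wells did not overlap those of either class, with differences of 1.04 ± 0.31 (edgeR adjusted p = 0.016) and 1.38 ± 0.29 (edgeR adjusted p = 1.9e-05). Syvn1 itself had 89.1, 66.3 and 56.2 CPM in insulin-only wells, 34.6, 17.6 and 0 CPM in somatostatin-only wells and 47.2, 47.4 and 46.5 CPM in glucagon-only wells. It was higher in insulin-only than in somatostatin-only wells by 1.84 ± 0.51 (edgeR adjusted p = 0.0089), while the difference of 0.35 ± 0.38 from glucagon-only wells did not pass (edgeR adjusted p = 0.52). Its annotated span shares 91 bases with Mrpl49 on the opposite strand, so reads there could belong to either gene.

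Edem1 and Herpud1 passed against glucagon-only wells and not against somatostatin-only wells. Edem1 had 81.0, 79.3 and 54.1 CPM in insulin-only wells, 39.9, 26.4 and 82.5 CPM in somatostatin-only wells and 0, 15.8 and 10.3 CPM in glucagon-only wells of sham plates 1 to 3. It was higher than in glucagon-only wells by 2.46 ± 0.56 (edgeR adjusted p = 6.8e-05), a comparison that rests on 5 UMIs in the glucagon-only wells, and differed from somatostatin-only wells by 1.09 ± 0.48 (edgeR adjusted p = 0.12). Herpud1 had 332, 381 and 361 CPM in insulin-only wells, 306, 246 and 385 CPM in somatostatin-only wells and 63.0, 232 and 222 CPM in glucagon-only wells. Its differences were 0.73 ± 0.17 against glucagon-only wells (edgeR adjusted p = 6.8e-05) and 0.46 ± 0.18 against somatostatin-only wells (edgeR adjusted p = 0.073).

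Xbp1 was spread evenly over the islet classes. It had 251, 413 and 369 CPM in insulin-only wells, 391, 475 and 220 CPM in somatostatin-only wells and 362, 295 and 352 CPM in glucagon-only wells of sham plates 1 to 3, and all classes overlapped. The differences were -0.05 ± 0.17 against somatostatin-only wells (edgeR adjusted p = 0.90) and 0.05 ± 0.15 against glucagon-only wells (edgeR adjusted p = 0.82). Counts at the 3′ end do not tell spliced from unspliced Xbp1. Derl3 was rare, with 20 UMIs in all sham insulin-only wells (8.10, 10.7 and 10.4 CPM on plates 1 to 3), 2 UMIs in somatostatin-only and 2 in glucagon-only wells, and was not tested between classes.

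**Figure D1:**
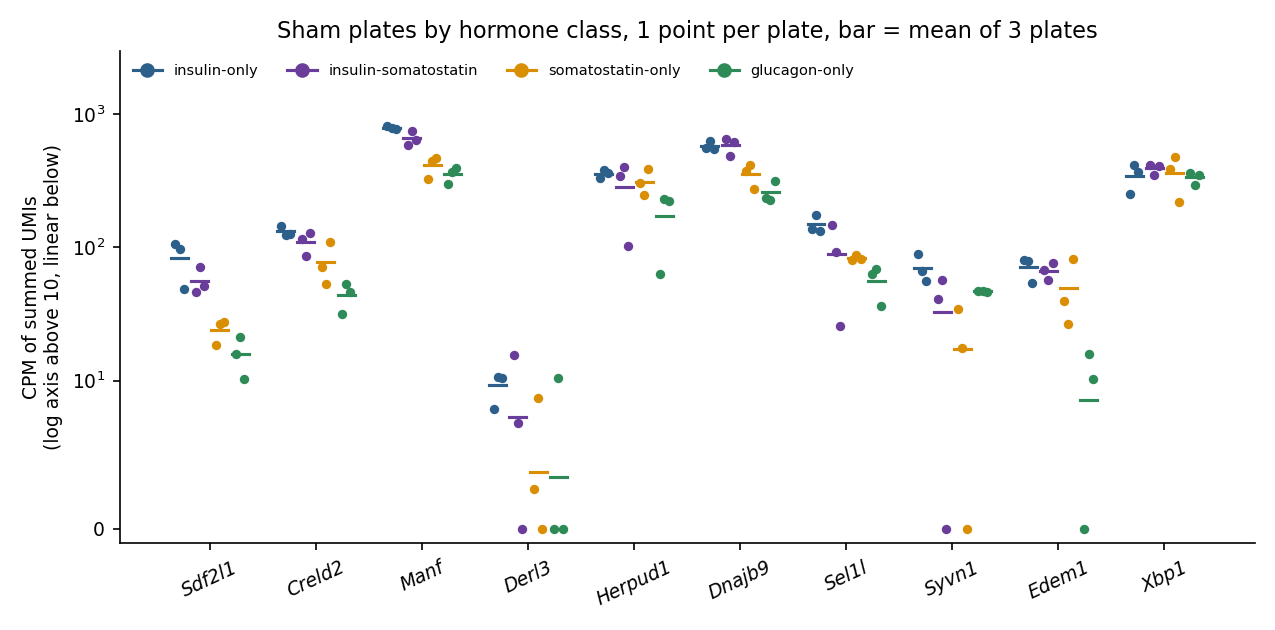
Level of each gene on the 3 sham plates (points) and their mean (bar) in 4 hormone classes, as CPM of summed UMIs on an axis that is logarithmic above 10 and linear below. Manf lies at 770 to 810 CPM in insulin-only wells and at 299 to 467 CPM in somatostatin-only and glucagon-only wells, while the classes overlap for Xbp1.

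The calls against somatostatin-only wells depended on single sham plates, and the directions of these 6 genes did not. Without sham replicate 1, Manf and Dnajb9 stayed past the threshold and Sdf2l1 (edgeR adjusted p = 0.13), Creld2 (0.21), Sel1l (0.10) and Syvn1 (0.10) did not. Without sham replicate 2, Creld2 (edgeR adjusted p = 0.24), Sel1l (0.24) and Syvn1 (0.15) did not pass. DESeq2 called Sdf2l1 and Manf. Median depth was 4246.5 UMIs in insulin-only, 1582.5 in somatostatin-only and 3457 in glucagon-only wells over both operations, and the part of depth in the number of calls was not tested. The 13 acinar markers summed to 0 to 18.7 CPM in insulin-only and 110 to 194 CPM in somatostatin-only wells of the sham plates. On each sham plate 10 to 12 of the 13 were at 0 in somatostatin-only wells and 6 to 13 in insulin-only wells. Only 1 of the 13 was tested between these classes, and it was lower in insulin-only wells. The part of these markers in the differences of the 10 genes was not tested.

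Related genes were listed without regard to how they moved. In the comparison with somatostatin-only wells, 2 of 10 tested paralogs of the genes were higher in insulin-only wells, the derlin Derl1 (1.23 ± 0.30, edgeR adjusted p = 0.0034) and the cochaperone Dnajb11 (1.74 ± 0.42, edgeR adjusted p = 0.0028). Of 25 other degradation genes tested, 5 were higher, among them the translocon subunits Sec61b (0.91 ± 0.16, edgeR adjusted p = 5.1e-05) and Sec61a1 (1.13 ± 0.22, edgeR adjusted p = 0.00021). The stress transcription factors Atf4 (1.56 ± 0.17, edgeR adjusted p = 2.8e-08) and Ddit3 (2.27 ± 0.56, edgeR adjusted p = 0.0035) were the 2 of 11 tested sensors and regulators that were higher, as were 4 of 7 tested chaperones, led by the folding enzyme Pdia6 (1.55 ± 0.15, edgeR adjusted p = 1.3e-09) and by Calr (1.13 ± 0.13, edgeR adjusted p = 4.8e-08). No gene of these 4 lists was lower, and of all 3810 genes tested 10.1% were higher. Against glucagon-only wells, 5 of 9 paralogs, 9 of 19 other degradation genes, 3 of 9 sensors and regulators and 7 of 7 chaperones were higher, beside 17.4% of all 2692 genes tested (37.2% in either direction), and the proteasome shuttle factor Ubqln2 was lower (-0.99 ± 0.17, edgeR adjusted p = 5.1e-08). Among the sensors and regulators, the membrane-bound transcription factor Creb3l1 was higher (4.49 ± 0.59, edgeR adjusted p = 1.2e-12). Few of its UMIs lay in glucagon-only wells, so the size of this difference is uncertain. The others were Atf4 (0.83 ± 0.14, edgeR adjusted p = 1.8e-08) and Atf6 (0.95 ± 0.37, edgeR adjusted p = 0.030).

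The second question was how these genes stood after partial pancreatectomy. In insulin-only wells Derl3, Sdf2l1 and Creld2 differed most, at 4.83, 2.86 and 2.10 times the sham level by the edgeR estimate, and Xbp1 was at 1.00 times. The estimates of the other genes lay between 1.17 and 1.46 times. The median log2 fold change of the 10 genes was 0.51, against -0.01 over all 8110 genes tested. Creld2, Derl3, Dnajb9 and Sel1l had their lowest ppx plate above their highest sham plate, beside 7.31% of all genes tested, and none of the 10 lay lower on all ppx plates, beside 5.29%. These values stem from the comparison by which the genes were chosen and carry no test. By count, 3 of the 10 genes were among the 24 genes called higher, which is 0.296% of those tested (0.432% were called in either direction), and nothing is read from that count. It changed with the plates left out, as did the number of all genes called, and both are given at the end.

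Creld2 had 313, 259 and 295 CPM on ppx plates 1 to 3 against 146, 123 and 127 CPM on sham plates 1 to 3, and the groups did not overlap. The log2 fold change was 1.07 ± 0.15 (SE, n = 3 plates each). The ratio was 2.14 between the tomato-positive plates and 2.18 between the tomato-negative plates, so the difference was as large within either sort.

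Sdf2l1 had 104, 211 and 267 CPM on ppx plates against 105, 97.0 and 48.9 CPM on sham plates. The groups overlapped at replicate 1, where 10 UMIs in 19 ppx wells stood against 13 UMIs in 22 sham wells. Exact Poisson intervals at 95%, which cover counting error only, ran from 50.0 to 192 CPM for ppx replicate 1 and from 56.1 to 180 CPM for sham replicate 1. Between tomato-negative plates the levels were 239 CPM in ppx and 48.9 CPM in sham, a ratio of 4.89, and the log2 fold change over all plates was 1.52 ± 0.20.

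Manf followed the same division, with 751, 1359 and 1335 CPM on ppx plates against 810, 786 and 770 CPM on sham plates. Replicate 1 of ppx lay below all sham plates, and replicates 2 and 3 of ppx lay above them. The log2 fold change was 0.54 ± 0.15, with a ratio of 0.93 between tomato-positive and 1.75 between tomato-negative plates.

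Among the degradation genes, Derl3 had 73.0, 50.8 and 53.4 CPM on ppx plates against 8.10, 10.7 and 10.4 CPM on sham plates. No ppx plate came near a sham plate, although replicate 1 rested on 7 UMIs in ppx and 1 UMI in sham, with exact Poisson intervals of 29.3 to 150 CPM and 0.205 to 45.1 CPM. Over the 3 plates there were 135 UMIs in ppx and 20 UMIs in sham, and the log2 fold change was 2.27 ± 0.32. Between tomato-negative plates the ratio was 5.01.

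Dnajb9 had 657, 913 and 873 CPM on ppx plates against 559, 625 and 550 CPM on sham plates, and Sel1l had 198, 187 and 211 CPM on ppx plates against 138, 176 and 132 CPM on sham plates. Neither overlapped, but the gaps were narrow, at 657 against 625 CPM for Dnajb9 and 187 against 176 CPM for Sel1l. The log2 fold changes were 0.47 ± 0.14 for Dnajb9 and 0.32 ± 0.15 for Sel1l.

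Syvn1 had 62.6, 96.6 and 104 CPM on ppx plates against 89.1, 66.3 and 56.2 CPM on sham plates, and Edem1 had 62.6, 105 and 98.8 CPM on ppx plates against 81.0, 79.3 and 54.1 CPM on sham plates. Both overlapped at replicate 1 of ppx, which rested on 6 UMIs for each gene. Sham replicate 1 held 11 UMIs of Syvn1 and 10 UMIs of Edem1. The log2 fold changes were 0.54 ± 0.20 and 0.47 ± 0.20. Between tomato-negative plates the ratios were 1.79 for Syvn1 and 1.88 for Edem1, and between tomato-positive plates 0.70 and 0.77.

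Herpud1 had 375, 436 and 479 CPM on ppx plates against 332, 381 and 361 CPM on sham plates, which overlapped narrowly (log2 fold change 0.22 ± 0.14). Xbp1 had 219, 400 and 423 CPM on ppx plates against 251, 413 and 369 CPM on sham plates, with no difference beyond the spread of the plates (log2 fold change -0.00 ± 0.15). Replicate 1 was the lowest plate of both groups for Xbp1.

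**Figure D2:**
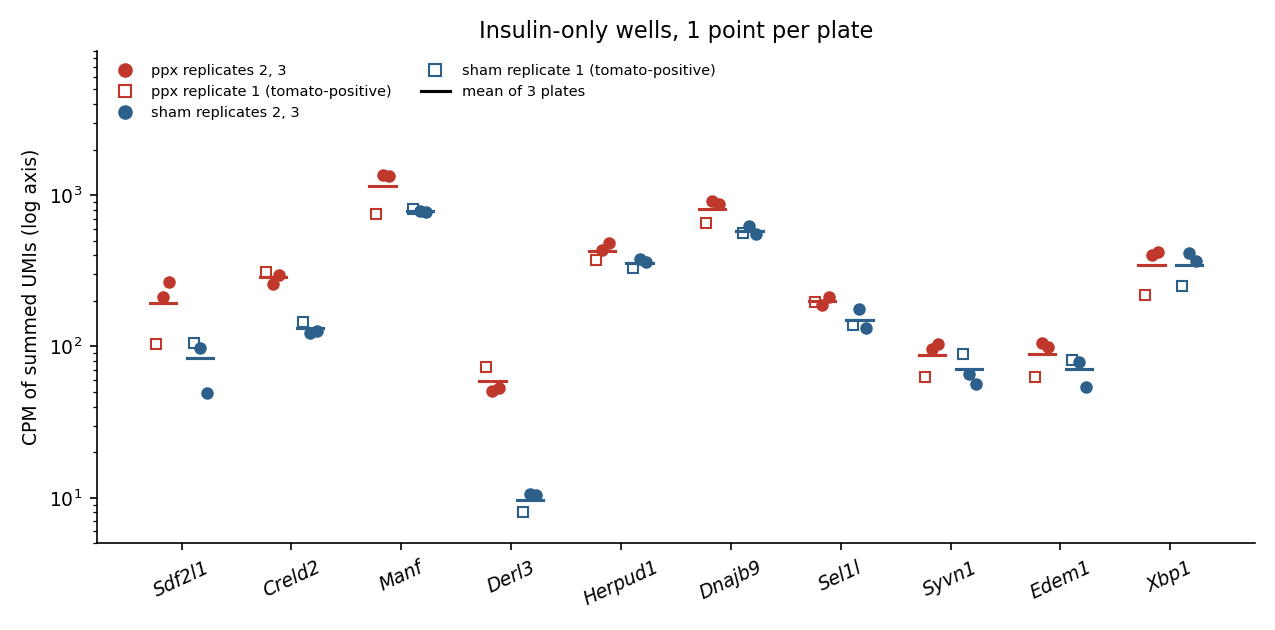
Level of each gene in insulin-only wells on the 3 ppx plates (left, red) and the 3 sham plates (right, blue), as CPM on a log axis, with bars for the means of 3 plates and open squares for the tomato-positive replicate 1. Derl3 and Creld2 do not overlap between the groups, while Sdf2l1 and Manf are low on the tomato-positive ppx plate (104 and 751 CPM).

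Sort and operation can be separated in part only, since each group had 1 tomato-positive plate, with 19 insulin-only wells in ppx and 22 in sham. Between these plates 5 of the 10 genes were higher in ppx, Derl3 (7 UMIs and 73.0 CPM in ppx, 1 UMI and 8.10 CPM in sham), Creld2 (ratio 2.14), Sel1l (1.44), Dnajb9 (1.17) and Herpud1 (1.13). Sdf2l1 had a ratio of 0.990, and Manf (0.926), Xbp1 (0.872), Edem1 (0.772) and Syvn1 (0.702) were lower. The ratio of Edem1 rests on 6 UMIs in ppx and 10 in sham, and that of Syvn1 on 6 and 11. Between tomato-negative plates all 10 genes were higher in ppx, with ratios of 1.11 (Xbp1) to 5.01 (Derl3). The tomato-negative comparison has 2 ppx plates and 1 sham plate, and no share over all genes is given beside this count. That sham plate, replicate 3, was the lowest sham plate for Sdf2l1, Manf, Dnajb9, Sel1l, Syvn1 and Edem1, and not for the other genes. Sdf2l1 had 48.9 CPM there and 97.0 CPM on sham replicate 2. Xbp1 had 369 CPM there and 413 CPM on sham replicate 2, against 400 and 423 CPM on ppx replicates 2 and 3.

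Markers of other cell types were present in the insulin-only wells, and some were higher in ppx. The 13 acinar markers summed to 31.3, 2.46 and 66.4 CPM on ppx plates 1 to 3 and 8.10, 0 and 18.7 CPM on sham plates 1 to 3. On ppx plates 3 to 12 of the 13 were at 0, and on sham plates 6 to 13. Ctrb1 stood at 10.4, 0 and 14.6 CPM on ppx plates against 0, 0 and 6.24 CPM on sham plates, and Cel, Prss2 and Try5 had UMIs on ppx replicate 3 alone. Amy2b, Cela2a and Clps were at 0 on all 6 plates. Derl3 stood at 50.8 CPM on ppx replicate 2, where 12 acinar markers were at 0, and at 53.4 CPM on ppx replicate 3, where 3 were. The 8 alpha cell markers summed to 3712 to 4305 CPM on ppx plates and 3176 to 3524 CPM on sham plates, and the 8 duct markers to 566 to 761 CPM on ppx plates and 445 to 528 CPM on sham plates, without overlap for either list. Of 4 tested alpha cell markers 1 was called, Gc, the vitamin D-binding protein, at 344, 321 and 299 CPM on ppx plates against 138, 122 and 119 CPM on sham plates (edgeR adjusted p = 1.5e-06, higher on every ppx plate). Of 5 tested duct markers none was called with edgeR or DESeq2, and 2 had an unadjusted p under 0.05. The part of these markers in the levels of the 10 genes was not tested. The 11 plasma and B cell markers found in the files summed to 52.1 to 87.5 CPM on ppx plates and 47.3 to 324 CPM on sham plates, with Ighm, Ighg1 and Cd79b at 0 on all 6 plates and Igkc and Jchain at 0 on ppx replicates 1 and 2. Most of the sum in ppx was Txndc5, a folding enzyme that other cells also express, at 51.8 to 58.1 CPM on ppx plates and 41.6 to 89.1 CPM on sham plates. Beta cell markers were not called different between the operations in insulin-only wells (0 of 8, edgeR).

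In the same wells 4 of 8 chaperones were called higher in ppx, Hspa5 (0.77 ± 0.14, edgeR adjusted p = 0.0012), Pdia4 (1.28 ± 0.25, edgeR adjusted p = 0.0056), Hyou1 (0.86 ± 0.19, edgeR adjusted p = 0.018) and Hsp90b1 (0.70 ± 0.16, edgeR adjusted p = 0.036). These were known from earlier results of the same plates and are no independent evidence. Of 35 other degradation genes 1 was higher, Dnajc3 (0.59 ± 0.14, edgeR adjusted p = 0.036), a cochaperone that also restrains Perk. With DESeq2, 1 of the 8 chaperones was called. None of 13 paralogs and none of 15 sensors and regulators passed with edgeR or DESeq2, and over all 8110 genes edgeR called 0.432%. At an unadjusted edgeR p under 0.05 there were 3 of the 13 paralogs and 1 of the 15 sensors and regulators, beside 729 of 8110 genes. The paralogs with the smallest p were Dnajb11 (0.52 ± 0.15, edgeR adjusted p = 0.15), Edem2 (0.49 ± 0.17, 0.30) and Sel1l3 (0.85 ± 0.41, 0.53). Among sensors and regulators they were Creb3 (0.59 ± 0.24, edgeR adjusted p = 0.41), Mbtps2 (-0.82 ± 0.48, 0.65) and Ddit3 (0.34 ± 0.21, 0.68).

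In somatostatin-only, glucagon-only and insulin-somatostatin wells, which did not serve to choose the genes, none of the 10 genes passed the test for a difference between ppx and sham, with edgeR or with DESeq2. These classes were thin. Only 4 of the 10 genes were tested in somatostatin-only wells, 4 in glucagon-only wells and 6 in insulin-somatostatin wells, and edgeR called 0.111% of 904, 0.728% of 687 (0.582% higher) and 0.0889% of 1125 genes in either direction. At an unadjusted p under 0.05 there were 36, 57 and 62 genes, of which Manf in insulin-somatostatin wells was the 1 among the 10. Of the related genes, 0 of 12 other degradation genes and 0 of 6 chaperones passed in insulin-somatostatin wells, 0 of 10 and 0 of 6 in somatostatin-only wells, and 0 of 9 and 0 of 6 in glucagon-only wells. None of the few sensors, regulators and paralogs tested in these classes passed either.

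In insulin-somatostatin wells, Manf had 821, 1054 and 1161 CPM on ppx plates 1 to 3 against 589, 755 and 641 CPM on sham plates 1 to 3. All ppx plates lay above all sham plates, and the log2 fold change of 0.52 ± 0.18 had an unadjusted edgeR p of 0.0084 and an adjusted p of 0.83. Creld2 had 139, 155 and 348 CPM on ppx plates against 116, 85.5 and 128 CPM on sham plates, which also did not overlap (0.59 ± 0.30, edgeR adjusted p = 0.83). Sdf2l1, below the filter, had 86.0, 217 and 155 CPM on ppx plates against 46.5, 71.3 and 51.3 CPM on sham plates. Syvn1, also below the filter, had 62.2, 155 and 116 CPM on ppx plates, from 34, 5 and 3 UMIs. On sham plates Syvn1 had 41.3, 57.01 and 0 CPM, from 16, 8 and 0 UMIs. These 4 of 10 genes, of which Manf and Creld2 were among the 6 tested, were higher on every ppx plate, beside 5.24% of the genes tested, and none was lower on every ppx plate, beside 4.09%. Replicates 2 and 3 of ppx held 6 wells each and sham replicate 3 held 6 wells, so that single UMIs weigh heavily there.

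In the same joined wells the acinar markers summed to 115 to 248 CPM on ppx plates and 25.6 to 46.5 CPM on sham plates, with 11 or 12 of the 13 at 0 on every plate. Their part in the levels of Manf, Creld2, Sdf2l1 and Syvn1 was not tested. Dnajb9 (0.04 ± 0.19), Herpud1 (0.13 ± 0.23), Sel1l (0.02 ± 0.34) and Xbp1 (-0.06 ± 0.20) lay near 0 in these wells, with edgeR adjusted p-values of 0.98 to 1.00.

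In somatostatin-only wells, the tested genes were Manf (-0.00 ± 0.24), Dnajb9 (-0.05 ± 0.21), Herpud1 (-0.36 ± 0.27) and Xbp1 (-0.19 ± 0.22), each with an edgeR adjusted p of 1.00. Manf had 374, 298 and 423 CPM on ppx plates 1 to 3 against 327, 449 and 467 CPM on sham plates 1 to 3, and the groups overlapped. Creld2 had 69.3, 0 and 60.4 CPM on ppx plates (28, 0 and 2 UMIs). On sham plates it had 71.9, 52.8 and 110 CPM (27, 6 and 4 UMIs). Sdf2l1 had 6 UMIs in ppx and 11 UMIs in sham, and Derl3 had 4 UMIs in ppx and 2 UMIs in sham. Sel1l, below the filter with 28 UMIs in ppx and 43 UMIs in sham, was the 1 gene of the 10 that was lower on every ppx plate, beside 5.64% of the genes tested, and none was higher on every ppx plate, beside 3.43%. In glucagon-only wells Manf (0.38 ± 0.24), Herpud1 (0.31 ± 0.41), Dnajb9 (-0.11 ± 0.28) and Xbp1 (-0.11 ± 0.27) had edgeR adjusted p-values of 0.81 to 0.99. Creld2 had 5 UMIs in ppx and 21 UMIs in sham there, and Sdf2l1 had 5 UMIs in ppx and 7 UMIs in sham. Syvn1, with 2 UMIs in ppx and 21 UMIs in sham, was lower on every ppx plate, beside 8.59% of the genes tested, and none of the 10 was higher, beside 4.66%.

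The log2 fold change of ppx over sham in insulin-only wells minus that in somatostatin-only wells was 1.38 ± 0.59 for Creld2, 0.80 ± 0.38 for Herpud1, 0.55 ± 0.33 for Dnajb9 and 0.39 ± 0.32 for Manf (edgeR interaction, SE, n = 6 plates). It was 0.95 ± 0.60 for Sel1l, 0.15 ± 0.35 for Xbp1, -0.64 ± 0.89 for Syvn1 and -0.45 ± 0.81 for Edem1. For Sdf2l1 it was 0.96 ± 0.96 and for Derl3 1.87 ± 2.01, so the few UMIs in somatostatin-only wells leave the difference undetermined. The same difference against glucagon-only wells was 1.56 ± 0.70 for Creld2, 0.65 ± 0.30 for Dnajb9, 0.21 ± 0.24 for Manf and -0.06 ± 0.33 for Herpud1. It was 0.16 ± 0.98 for Sdf2l1, 0.44 ± 0.66 for Sel1l, 0.13 ± 0.30 for Xbp1 and 2.08 ± 1.02 for Syvn1, the last from 2 UMIs in glucagon-only ppx wells. Edem1 had no UMI in those ppx wells, and Derl3 was too sparse to be fitted. No p is given, since the insulin-only side chose the genes.

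**Figure D3:**
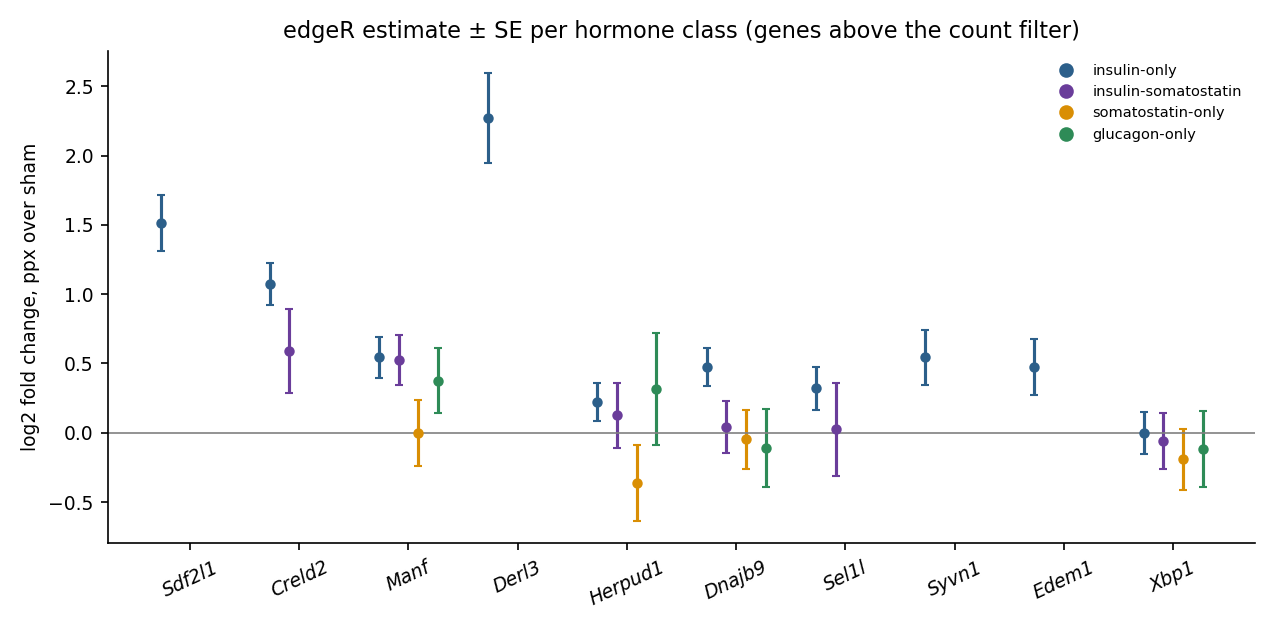
Log2 fold change of ppx over sham with its SE (edgeR, n = 3 plates each) in 4 hormone classes, for the genes above the count filter in each class. Derl3 (2.27), Sdf2l1 (1.52) and Creld2 (1.07) stand highest in insulin-only wells, and Xbp1 lies near 0 in all 4 classes.

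The remaining classes gave few UMIs. In the 61 wells high in pancreatic polypeptide (Ppy), Manf had 406, 305 and 247 CPM on ppx plates 1 to 3, against 434 and 324 CPM on the 2 sham plates with at least 5 wells. Creld2 had 9 UMIs in ppx and 0 UMIs in sham there, and Derl3 had 0 UMIs in ppx and 1 UMI in sham. Hormone-low wells (109) had a median of 968 UMIs, and Sdf2l1 stood at 0, 0 and 163 CPM on ppx plates and 0, 100 and 17.0 CPM on sham plates. Acinar markers summed to 169957 CPM in hormone-low wells on 1 ppx plate and to 0 to 69.4 CPM on sham plates.

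The third question was whether the same wells carry several of the genes. Wells were compared at an equal depth, as the expected outcome of drawing 1000 UMIs from each well, which left out 9 ppx and 3 sham insulin-only wells. At that depth Manf was seen in 62.4% ± 11.8 of ppx and 51.1% ± 1.91 of sham insulin-only wells (SD, n = 3 plates each), and Dnajb9 in 49.8% ± 7.51 and 40.1% ± 2.07. Creld2 was seen in 19.7% ± 3.36 of ppx and 11.5% ± 2.00 of sham wells, Sdf2l1 in 16.6% ± 6.37 and 7.34% ± 2.87, and Derl3 in 4.76% ± 0.433 and 1.21% ± 0.562. Xbp1 was seen in 29.1% ± 7.71 of ppx and 29.0% ± 4.96 of sham wells. At full depth the medians were 3848 to 4307 UMIs on ppx and 4483 to 5217 UMIs on sham plates. With the wells of 3 plates pooled, 53.5% of ppx and 25.8% of sham wells held Sdf2l1, and 53.7% and 37.2% held Creld2. Derl3 was held by 16.3% and 4.59%, and Manf by 94.0% and 90.3%. Pooling gives little weight to plate 1, with 19 ppx and 22 sham wells. There the shares were 42.1% and 36.4% for Sdf2l1, 42.1% and 50% for Creld2, 26.3% and 4.55% for Derl3, and 89.5% and 90.9% for Manf. At the low levels of Sdf2l1 and Derl3, the share of wells with a UMI largely follows the mean level and is no separate result. Somatostatin-only wells at 1000 UMIs held Sdf2l1 in 0.673% ± 0.687 of ppx and 2.07% ± 0.561 of sham wells, and Derl3 in 1.65% ± 2.58 and 0.281% ± 0.304. Their ppx means weigh plates 2 and 3, with 9 and 11 such wells, as much as plate 1 with 197.

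At 1000 UMIs, 28.5%, 52.5% and 53.2% of insulin-only wells on ppx plates 1 to 3 carried at least 3 of the 10 genes, against 30.0%, 33.3% and 27.6% on sham plates 1 to 3. Intervals at 95% (Wilson, counting error only) were 13.2 to 51.0%, 46.8 to 58.2% and 47.4 to 58.9% in ppx, and 15.1 to 50.9%, 26.8 to 40.5% and 21.8 to 34.3% in sham. The ppx plate sorted as tomato-positive lay within the sham plates. Wells with at least 5 genes made up 3.81%, 9.31% and 11.1% on ppx plates and 1.99%, 3.46% and 1.96% on sham plates.

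**Figure D4:**
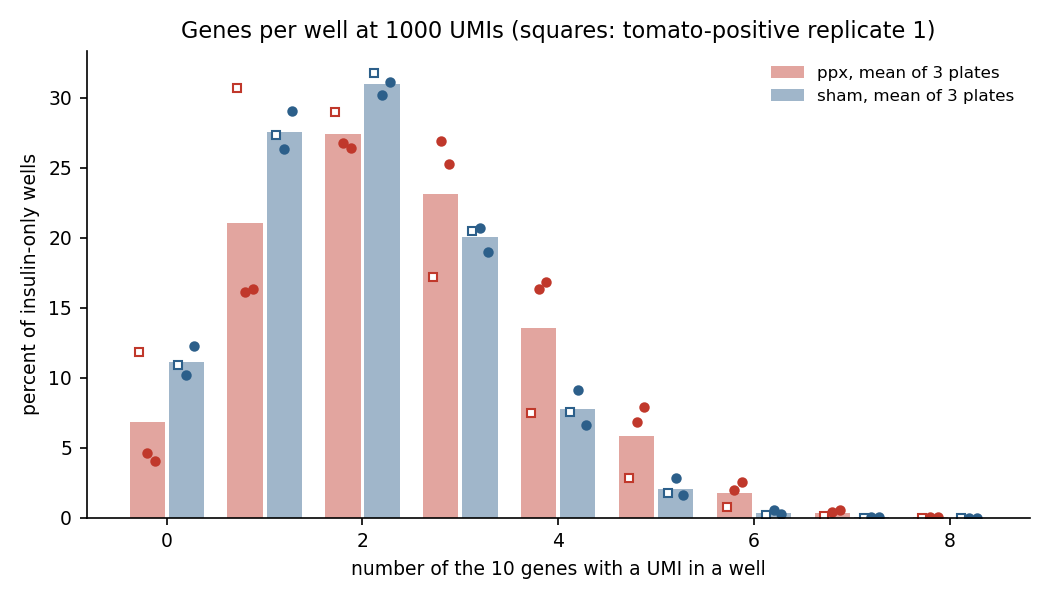
Percent of insulin-only wells by the number of the 10 genes with a UMI, at 1000 UMIs per well, for ppx (left, red) and sham (right, blue), with bars for the mean of 3 plates and points for single plates. The 2 tomato-negative ppx plates have 52.5% and 53.2% of wells at 3 genes or more, above the 27.6% to 33.3% of the sham plates, and the tomato-positive ppx plate (square) has 28.5%.

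These shares were close to what the separate shares of each gene give if the genes fall in wells independently, which is 28.4%, 53.1% and 55.1% on ppx plates and 29.1%, 32.6% and 26.5% on sham plates. The number of genes per well varied somewhat more than independence gives. Its variance was 1.24, 1.24 and 1.27 times the independent value on ppx plates and 1.06, 1.19 and 1.14 times on sham plates. In somatostatin-only wells the same ratio was 0.993, 0.837 and 1.09 on ppx plates and 1.15, 1.23 and 1.31 on sham plates. Only 9 and 11 of these wells were on ppx plates 2 and 3, and 17 on sham plate 3.

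Of the 45 pairs of genes, 38 had at least 10 insulin-only wells expected with both, computed within plates and summed over the 6 plates, and in 30 of them the wells with both outnumbered those expected. The median ratio was 1.07, and the range was 0.887 to 1.41. Of these 38 pairs Sdf2l1 and Creld2 had the highest ratio, with both in 39.8 wells against 28.3 expected (ratio 1.41), and with 35.7 against 25.6 on ppx plates and 4.08 against 2.71 on sham plates. Derl3 and Dnajb9 had a ratio of 1.25 and Creld2 and Sel1l one of 1.19. Sdf2l1 exceeded the expected number with all 8 partners and Dnajb9 with all 9, whereas Xbp1 did so with 2 of 9, at ratios of 0.887 to 1.02. Some pairs below the minimum set for pairs had higher ratios, from few wells. They were Creld2 with Derl3 (1.74, 10.8 wells against 6.19 expected), Derl3 with Edem1 (1.55, 3.73 against 2.40) and Sdf2l1 with Derl3 (1.51, 8.45 against 5.60). The pairs share wells and genes and are not independent.

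**Figure D5:**
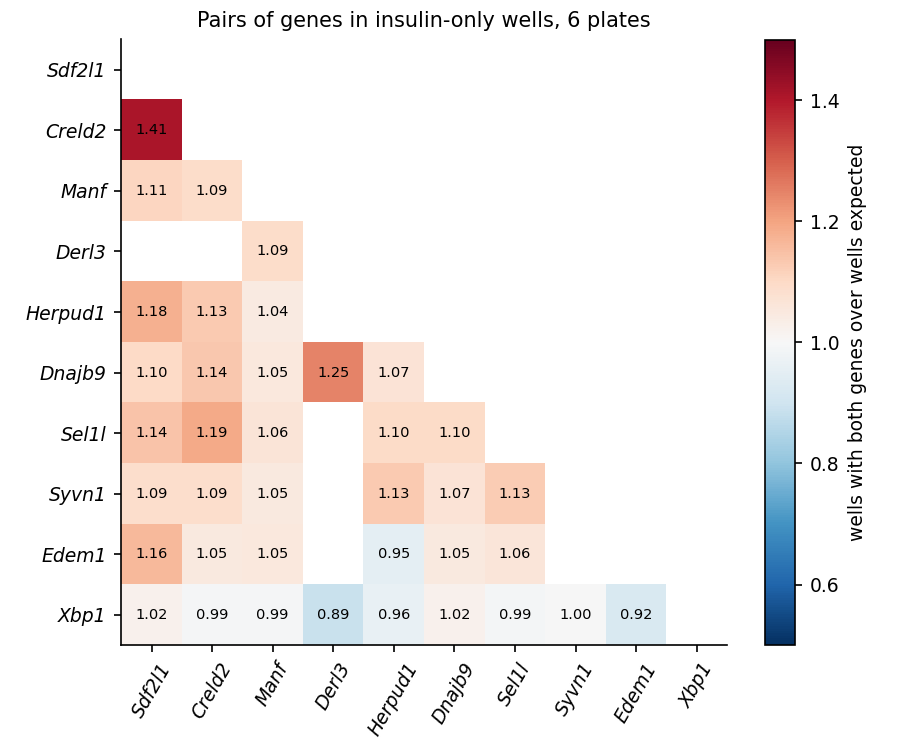
Number of insulin-only wells with a UMI of both genes over the number expected if they fell independently within each plate, at 1000 UMIs per well, for pairs with at least 10 wells expected over the 6 plates. Sdf2l1 with Creld2 is highest (1.41), and most pairs of Xbp1 lie below 1.

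Genes whose counts ran with the summed log2 level of the 10 genes across single insulin-only wells were ranked by the mean correlation over the 5 plates with at least 20 such wells, out of 1177 genes seen in at least 10% of wells. These correlations are descriptions across wells of shared plates at 1000 UMIs. Hspa5, the main chaperone of the endoplasmic reticulum, came first with a mean r of 0.23, and it was 0.29 and 0.32 on ppx plates 2 and 3 and 0.12, 0.15 and 0.28 on sham plates 1 to 3. The next were Rpl34 (0.19), Bex2 (0.16), Gm20390 (0.16), the folding enzyme Pdia6 (0.16), Fkbp4, C2cd4b, Spcs3, Ptprn and Tspan3 (each 0.14 to 0.15). Of these, Rpl34, Bex2, Gm20390, Fkbp4, Spcs3 and Tspan3 stood that high through the 22 wells of sham replicate 1, where their r was 0.53 to 0.67. On the 4 plates with at least 100 insulin-only wells the leading genes were Hspa5 (0.26), the chaperone Calr (0.17) and Pdia6 (0.15). The summed level of the 10 genes had an r of -0.10 to 0.15 with the insulin share of a well over the 6 plates, and of -0.02 to 0.55 with its depth before thinning.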

How the data were processed

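Islet cells were measured by MARS-seq on 6 plates. The authors deposited UMI counts per gene and well with no normalisation, and the submitters' processing notes name HISAT 0.1.6 and mm10. How reads were assigned to genes and strands is not given in the sources used here. Per GENCODE the span of Manf overlaps Rbm15b on the same strand and Dcaf1 on the opposite one, and Herpud1 and Syvn1 overlap antisense genes, so reads there are uncertain.

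Wells with at least 500 UMIs and at most 20% mitochondrial UMIs were kept. They were classed by insulin (3%), Sst (0.7%), Gcg (2%) and Ppy (2%) as shares of UMIs. UMIs were summed per class and plate (at least 5 wells), and tested with edgeR 4.0.16 (R 4.3.3, TMM, filterByExpr, quasi-likelihood F test, Benjamini-Hochberg over all genes tested, threshold 0.05), with plate as a block between classes. SEs come from the F statistic. DESeq2 1.42.0 was the second tool. Both the edgeR step and the well statistics were tested on simulated data. Equal-depth values are exact hypergeometric expectations over all draws of 1000 UMIs. They replaced a single random draw after such draws were seen to differ, and the correlations across wells still use a single draw. Gene positions are from GENCODE on GRCm38 and promoters from RefSeq (GRCm38.p6).

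The genes and lists were chosen with earlier results of these data known. The text names all 10 genes, the 10 genes most correlated with them in insulin-only wells, and from each list those called, up to 8, or otherwise the 3 with the smallest p. Some genes of the lists are given as counts only. Wells with other hormone mixtures were left out of the tests.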

Additional observations from a re-analysis of the deposited data

Results flagged for a closer look

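For 2 genes every ppx plate moved one way in one class and the other way in another class. No test of the difference between the classes was made. Sel1l averaged 199 CPM on ppx and 149 CPM on sham plates in insulin-only wells, higher on every ppx plate, and 41.6 CPM on ppx and 83.5 CPM on sham plates in somatostatin-only wells, lower on every ppx plate. The fitted log2 fold change of Sel1l in insulin-only wells minus that in somatostatin-only wells was 0.95 ± 0.60 (edgeR interaction, SE, n = 6 plates), under 2 SE from 0, and no p is given because the insulin-only side chose the gene. Syvn1 averaged 111 CPM on ppx and 32.8 CPM on sham plates in insulin-somatostatin wells, higher on every ppx plate, and 15.5 CPM on ppx and 47.1 CPM on sham plates in glucagon-only wells, lower on every ppx plate. For Syvn1 the difference between these classes was not fitted. Its glucagon-only level rests on 2 UMIs in ppx and 21 UMIs in sham, and ppx replicate 2 held no Sel1l UMI in its 9 somatostatin-only wells.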

How the results depend on the processing

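Counts of called genes moved more with the settings than the values of the 10 genes did, and no value changed sign past its threshold. In insulin-only wells 35 genes were called between ppx and sham, against 10 with DESeq2, 68 with no filter on low counts, 15 with hormone thresholds doubled, 59 without both tomato-positive plates and 11 to 48 with 1 plate left out. Of the 10 genes 3 were called, against 5 without both tomato-positive plates and 3 to 5 with 1 plate left out. The 10 genes were chosen by this comparison, so nothing is read from these 3 to 5 calls. In somatostatin-only wells 1 gene was called, against 2 with no filter, 9 with at least 10 wells per plate, 10 without both tomato-positive plates and 1 to 9 with 1 plate left out. In glucagon-only wells 5 genes were called, against 1 with DESeq2, 9 with no filter, 1 with thresholds doubled, 11 with at least 10 wells per plate, 13 without both tomato-positive plates and 0 to 8 with 1 plate left out. In insulin-somatostatin wells 1 gene was called, against 4 with no filter, 4 with at least 10 wells per plate, 0 without both tomato-positive plates and 0 to 3 with 1 plate left out. In these 3 classes 0 of the 10 genes were called under every alternative run.

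Between sham insulin-only and somatostatin-only wells 706 genes were called, against 295 with DESeq2, 461 with no filter, 281 on ppx plates and 270 to 609 with 1 plate left out. Of the 10 genes 6 were called, against 2 with DESeq2, 4 with no filter, 8 with thresholds doubled, 7 on ppx plates and 2 to 6 with 1 plate left out. Between insulin-only and glucagon-only wells 1002 genes were called, against 489 with DESeq2, 392 on ppx plates and 625 to 1347 with 1 plate left out, and of the 10 genes 6 were called, against 5 to 7 with 1 plate left out. The causes were not tested. The share of insulin-only wells with at least 3 genes was 44.7% in ppx and 30.3% in sham, against 78.6% and 67.7% at 2000 UMIs, 26.9% and 13.2% without Xbp1 and Herpud1, 33.9% in sham with at most 10% mitochondrial UMIs, and 40.5 to 52.9% and 28.8 to 31.7% with 1 plate left out. The variance ratio in ppx was 1.25, against 1.33 at 2000 UMIs and 1.22 with thresholds doubled. The ranking of correlated genes on plates with at least 100 wells was added after seeing the data, and ranks beyond the first depend on the single draw.

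The main fits did not pair plates by replicate number. Correlations of same-numbered plates' deviations were 0.02, 0.02 and 0.01 in insulin-only wells. They were -0.01, 0.07 and 0.11 in somatostatin-only wells and 0.01, -0.01 and 0.04 in glucagon-only wells. Deviations from the mean of so few plates are noisy, so these values cannot exclude a pairing. Replicate 1 was the tomato-positive plate of both groups. With the replicate number as a block, 63 genes and 4 of the 10 were called in insulin-only wells. The comparison in insulin-only wells chose the 10 genes, so nothing is read from those 4. With the same block, 4 genes were called in somatostatin-only wells, 5 in glucagon-only wells and 4 in insulin-somatostatin wells, with 0 of the 10 in each.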
